A study of Mus musculus with 12 samples.

Results

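The NF-kappa-B subunits and feedback regulators are 10 genes measured in ventral CA1 of the mouse hippocampus: the subunit genes Nfkb1, Nfkb2, Rela and Relb, the inhibitor genes Nfkbia, Nfkbib, Nfkbie and Nfkbiz, and the target genes Tnfaip2 and Tnfaip3. They were picked by name from 55471 Ensembl gene IDs, with Tnfaip3 as the gene of main interest, and all 10 were found once. Their counts in these same libraries were known when they were picked, so every level and difference of a member below is a description without a test. Acute horizontal brain slices came from wild-type male C57BL/6J mice aged 5-7 weeks, and 12 poly(A) RNA libraries were made, 3 for each of 4 groups. In Control the electrodes were in place and stimulation stayed at the basal level. In STET, strong tetanization was applied in vCA1 to bring about late long-term potentiation, with 100 pulses at 100 Hz given in each of 3 trains. The slices of STET_S100 had the basolateral amygdala stimulated at 100 Hz besides STET, and those of STET_S200 at 200 Hz. The label of STET_S200 names 200 Hz and then 100 Hz in brackets, so the rate is stated in 2 ways and the group keeps its name here. Tissue was frozen 30 min after stimulation in all groups. The tissue is what limits each group as a model: each library pools 6 slices from individual mice, with all cell types in them, and the slices had been cut and kept in a chamber for at least 3 h.

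NF-kappa-B is a family of transcription factors that work as pairs of subunits. In resting cells inhibitor proteins hold the pairs in the cytoplasm. Signals from cytokine receptors, Toll-like receptors and, in neurons, calcium entry lead to the destruction of the inhibitors and let the pairs enter the nucleus. Among the first genes switched on there are the pathway's own brakes. Nfkbia encodes IkB-alpha, which is remade and carries the subunits back out, and Tnfaip3 encodes A20, a ubiquitin-editing enzyme that shuts down the signal upstream of the inhibitor kinase. In brain tissue the pathway is best known in microglia, astrocytes and endothelial cells, and it has also been studied in synaptic plasticity.

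NF-kappa-B pairs bind a short DNA element, and promoters of feedback genes that hold letters of this kind are printed first, to show what the element looks like. RefSeq promoter windows on GRCm38.p6, from 250 bases before to 50 after a transcription start, matched 7 of the 10 members by symbol: Nfkb2, Rela, Nfkbia, Nfkbib, Nfkbie, Tnfaip2 and Tnfaip3. Shown 5′ to 3′ on the gene's own strand are the bases before the start of Tnfaip3, Nfkbia and Nfkbie that lie in no GENCODE exon, with matches on either strand to the 10-base motif of GGG, 3 bases of any kind and TTCC in capitals. The regions are chr10:19015411-19015547 for Tnfaip3 and chr12:55492648-55492897 for Nfkbia, both on the minus strand, and chr17:45555450-45555699 on the plus strand for Nfkbie.
Tnfaip3: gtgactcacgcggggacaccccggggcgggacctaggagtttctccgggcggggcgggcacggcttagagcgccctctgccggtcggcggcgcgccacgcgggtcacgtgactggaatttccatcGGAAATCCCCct
Nfkbia: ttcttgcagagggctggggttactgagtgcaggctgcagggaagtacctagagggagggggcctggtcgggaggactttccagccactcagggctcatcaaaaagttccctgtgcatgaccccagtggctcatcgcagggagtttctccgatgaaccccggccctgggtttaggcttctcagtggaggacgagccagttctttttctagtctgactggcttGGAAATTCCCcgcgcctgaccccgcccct
Nfkbie: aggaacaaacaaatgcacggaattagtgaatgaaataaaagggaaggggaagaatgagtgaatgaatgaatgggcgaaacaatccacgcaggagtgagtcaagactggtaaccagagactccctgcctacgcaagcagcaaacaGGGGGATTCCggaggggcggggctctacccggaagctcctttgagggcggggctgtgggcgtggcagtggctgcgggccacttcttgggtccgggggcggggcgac

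The match printed for Tnfaip3 begins 12 bases before the start, that for Nfkbia 29 bases before it, and that for Nfkbie 106 bases before it. Tnfaip3 also held GGGCAGTTCC, on the other strand, 33 bases after the printed start. In the window of another start it held GGGTTATTCC 90 bases before that start. Nfkb2 held GGGGCTTTCC 11 bases and, on the other strand, GGGGAATTCC 38 bases before its first start. The motif thus occurred in 4 of the 7 matched members, against 6.31% of all 27025 genes with such windows and 5.56% of the 32851 windows. The 7 members had 10 windows between them, since Tnfaip3 and Nfkb2 have further starts, and a gene with more windows can match more readily. A narrower form, GGG, 2 bases of any kind and TTTCC, each match of which is also a match of the first, occurred in 3 of 7, Nfkb2, Nfkbia and Tnfaip3, against 1.89% of genes and 1.63% of windows. The wide form, GGG, 5 bases of any kind and CC, which includes both, was found in 6 of 7 members, in 53.5% of genes and in 50.8% of windows. Rela, Nfkbib and Tnfaip2 held no match to the first form in these windows. In the Tnfaip2 window the bases after the start were not found in a GENCODE transcript of that gene. Of its 250 bases before the start, 192 lie in GENCODE exons, so whether this window holds the promoter of Tnfaip2 is uncertain. A match describes letters and does not show binding.

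The libraries held 36.3 to 52.8 M counts, and each member had at least 269 counts in every library, the fewest being those of Nfkbie. The CA1 pyramidal neuron markers Camk2a (3300 to 3980 CPM) and Wfs1 (76.0 to 99.2 CPM) were high in all 12. CPM are counts divided by the library total in M, with that total adjusted by the trimmed mean of M values. The 5 libraries Control 3, STET 3, STET_S100 1, STET_S200 2 and STET_S200 3 stood apart by the fat and capillary gene Fabp4, at 7.08 to 8.46 CPM against at most 0.275 CPM in the 7 others. They were not alike in Alb, the albumin gene, also taken as a marker of peripheral tissue. Alb was at 7.49 to 8.47 CPM in them except in STET 3 (0.0868 CPM), and at most 0.0567 CPM in the 7 others. Choroid plexus RNA also varied, with Ttr from 1.73 to 2800 CPM, and was low in the 3 STET_S200 libraries and STET_S100 3. Values without the 5 libraries and with a choroid plexus score in the fit are given beside the main result. In bulk tissue, fewer cells of a type and less RNA per cell cannot be told apart. Each mouse gave 1 slice to each of the 4 groups, per the protocol, so libraries of 1 group hold slices of different mice and the groups share mice. The labels do not say which libraries share them.

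Per kilobase of exon, the inhibitor gene Nfkbia was the highest of the 10 members. It averaged 44.7 RPKM over the 12 libraries, where RPKM are the CPM divided by the summed exon length in kilobases. Rela, the subunit with the main activation domain of the classical pathway, averaged 12.4 RPKM, and Nfkbib, which encodes IkB-beta, 11.6 RPKM. In the middle lay Nfkbiz (9.35 RPKM), which encodes a nuclear protein that works with NF-kappa-B on a subset of its targets, and Tnfaip3 (6.21 RPKM). Relb (5.22 RPKM) and Nfkb2 (4.84 RPKM), the subunits of the alternative pathway, were lower. Nfkb1 (3.49 RPKM), which encodes the p105 precursor of p50, Tnfaip2 (3.07 RPKM) and Nfkbie (2.47 RPKM), which encodes IkB-epsilon, closed the order. All 10 passed the filter on low counts through every group.

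Exons of some members overlap exons of another gene on the opposite strand, and the strand setting of the counting is not given in the sources used here. The overlap was 299 bases with Psd and 531 with AC114539.1 of 4584 exon bases in Nfkb2. In Nfkbib it was 314 bases with Ccer2 and 42 with Sirt2 of 2169, and in Tnfaip2 314 bases with Gm40578 of 4984. Levels of these 3 genes are uncertain for that reason, by an amount that was not measured.

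**Figure D1:**
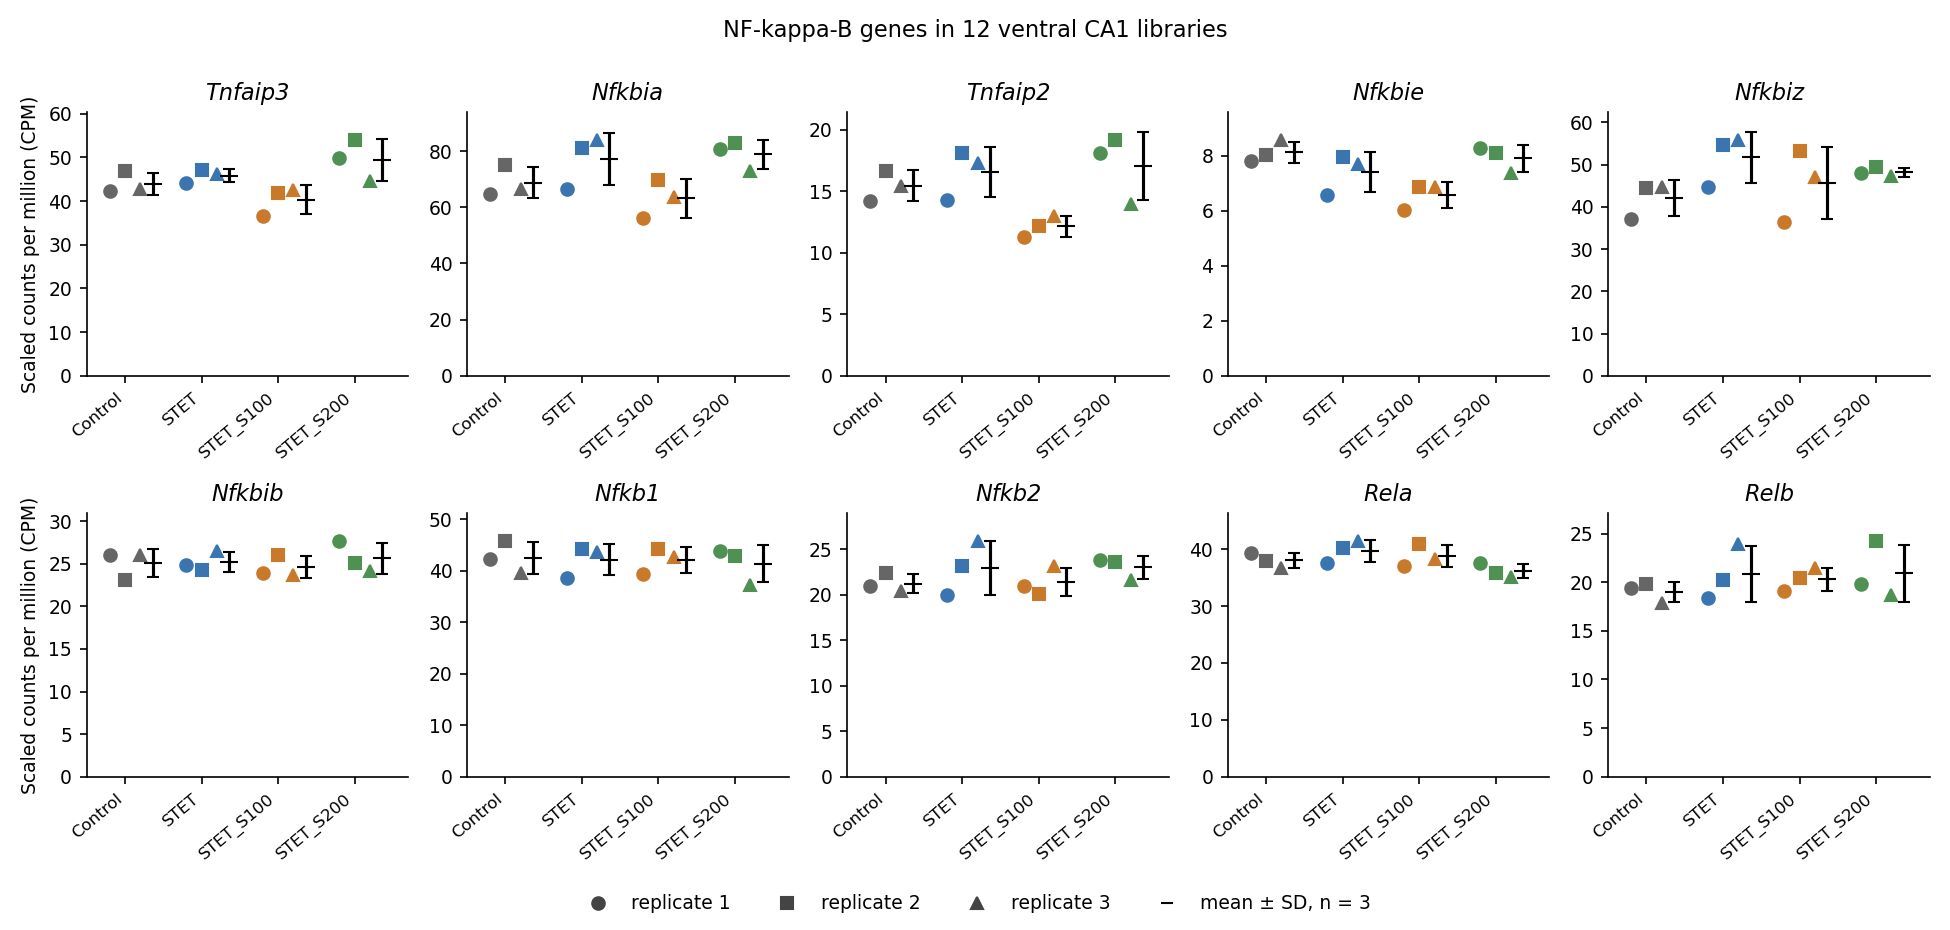
CPM of the 10 genes, 1 panel per gene with its own axis from 0. Symbols are the 3 libraries of a group, and the black bar gives their mean and SD. Tnfaip3, Nfkbia, Tnfaip2 and Nfkbie lie lower in all 3 STET_S100 libraries than in any STET_S200 library, while Rela, Nfkb1 and Nfkbib show little difference between groups.

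Tnfaip3 was lowest with 100 Hz amygdala stimulation and highest with 200 Hz. It stood at 36.5, 41.8 and 42.5 CPM in STET_S100 1, 2 and 3 and at 49.8, 53.9 and 44.5 CPM in STET_S200 1, 2 and 3. In Control it was at 42.3, 46.9 and 42.6 CPM, and in STET at 44.1, 47.0 and 46.2 CPM. All 3 STET_S100 libraries were thus below all STET_S200 and all STET libraries, while Control overlapped with each stimulated group. Over the group means the order was STET_S200 (49.4 ± 4.71 CPM), STET (45.8 ± 1.51), Control (43.9 ± 2.55) and STET_S100 (40.3 ± 3.30; SD, n = 3 each), and no 2 neighbours in that order were free of overlap.

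The log2 fold change of Tnfaip3 in STET_S200 against STET_S100 was 0.30 ± 0.07 (SE), a level 22.8% higher. Against STET, the addition of 100 Hz stimulation gave −0.18 ± 0.07 and that of 200 Hz 0.11 ± 0.07. Tetanization alone differed from Control by 0.06 ± 0.07, less than its error. Against Control STET_S100 gave −0.13 ± 0.07 and STET_S200 0.17 ± 0.07, and these comparisons share the Control libraries, as those above share STET or STET_S100.

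Single libraries carried part of these differences. Without STET_S100 1, the lowest of all 12, Tnfaip3 in STET_S200 against STET_S100 was 0.23, in STET_S100 against STET −0.12, and in STET_S100 against Control −0.06, which was −0.08 without Control 2. Leaving out the lowest STET_S100 library could not create overlap with STET or STET_S200, so the separation of the groups is not tested by it. Without STET_S200 2, the highest, the differences of STET_S200 were 0.23 against STET_S100, 0.10 against Control and 0.04 against STET, and the last was 0.18 without STET_S200 3. With only the 7 libraries low in Fabp4, where STET_S200 is 1 library, the difference between the amygdala groups was 0.24, and with the choroid plexus score in the fit it was 0.25. In the same 2 settings STET_S100 against STET gave −0.11 and −0.19, and STET_S200 against STET 0.12 and 0.07.

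**Figure D2:**
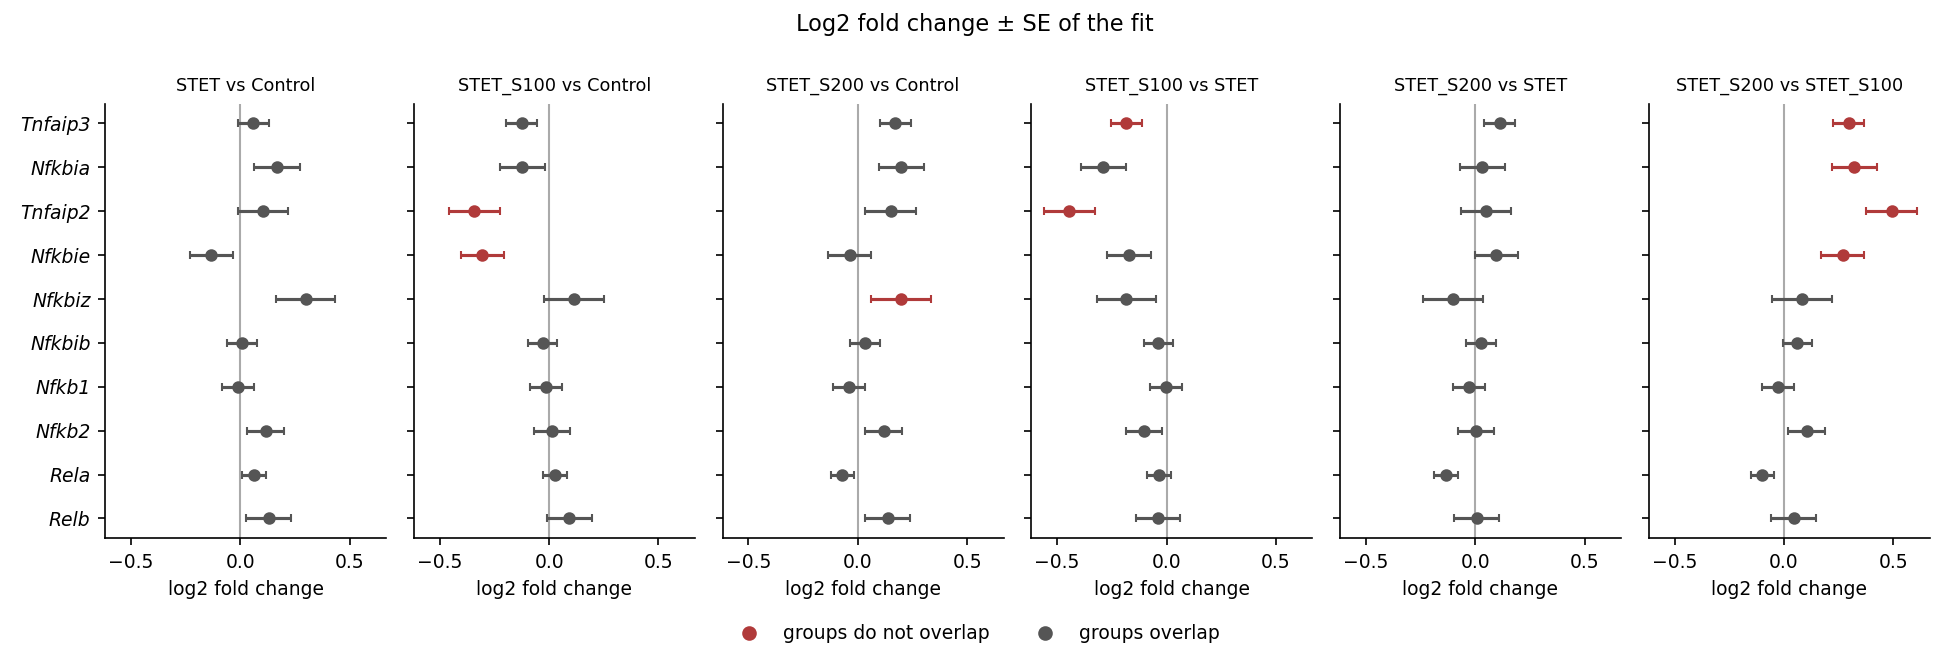
Log2 fold changes of the 10 genes (points) with the SE of the fit (bars) in 6 comparisons, coloured red where the 3 libraries of one group lie all above or all below those of the other. In the last panel Tnfaip2 (0.49), Nfkbia (0.32), Tnfaip3 (0.30) and Nfkbie (0.27) are higher in STET_S200 than in STET_S100 without overlap, and the other 6 genes overlap.

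Among the inhibitors, Nfkbia had its group means in the order of Tnfaip3. It was at 64.8, 75.1 and 66.4 CPM in Control 1, 2 and 3, at 66.6, 81.2 and 83.8 CPM in STET, at 56.2, 69.9 and 63.6 CPM in STET_S100 and at 80.6, 83.0 and 73.0 CPM in STET_S200. Only the 2 amygdala groups were free of overlap, with a log2 fold change of 0.32 ± 0.10 for STET_S200 against STET_S100. The other differences were 0.20 ± 0.10 for STET_S200 against Control, 0.17 ± 0.10 for STET against Control, −0.12 ± 0.10 for STET_S100 against Control and −0.29 ± 0.10 for STET_S100 against STET. STET against Control was 0.10 without STET 3, 0.26 without STET 1 and 0.08 with the 7 libraries low in Fabp4. The difference between STET_S100 and Control was −0.04 without STET_S100 1, −0.06 without Control 2 and −0.20 without STET_S100 2, and with the 7 libraries low in Fabp4 that between STET_S100 and STET was −0.15.

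Nfkbie had the lowest counts of the 10 members and was lowest in STET_S100. It stood at 7.81, 8.02 and 8.55 CPM in Control, at 6.57, 7.97 and 7.68 in STET, at 6.02, 6.85 and 6.86 in STET_S100 and at 8.27, 8.11 and 7.35 in STET_S200. The STET_S100 libraries were below all Control and all STET_S200 libraries and overlapped with STET through STET 1. The log2 fold changes were −0.31 ± 0.10 for STET_S100 against Control, 0.27 ± 0.10 for STET_S200 against STET_S100 and −0.13 ± 0.10 for STET against Control, the last of which was −0.05 without STET 1.

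Nfkbiz differed from the other inhibitors in being higher than Control on average in each stimulated group. Its levels were 37.2, 44.4 and 44.8 CPM in Control, 44.8, 54.6 and 55.8 CPM in STET, 36.4, 53.3 and 47.1 CPM in STET_S100 and 48.0, 49.4 and 47.2 CPM in STET_S200. Only STET_S200 was free of overlap with Control, and the log2 fold changes over Control were 0.30 ± 0.14 in STET, 0.11 ± 0.14 in STET_S100 and 0.20 ± 0.14 in STET_S200. STET_S100 held both one of the highest values and the lowest, so its SD of 8.53 CPM was the widest of the 4 groups. The STET_S100 value was 0.30 with the 7 libraries low in Fabp4, 0.25 without STET_S100 1, 0.03 without Control 1 and −0.01 without STET_S100 2, and the STET_S200 value was 0.11 without Control 1.

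Nfkbib, whose product IkB-beta is not known as a rapid target of the pathway, stayed between 23.1 and 27.6 CPM in all 12 libraries. Its largest difference among the comparisons of 2 groups was 0.06 ± 0.07, for STET_S200 against STET_S100, which was 0.15 with the 7 libraries low in Fabp4.

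Tnfaip2, a gene induced by tumour necrosis factor in endothelial and other cells, showed the widest range of the members, 1.69-fold from lowest to highest library. It was at 14.2, 16.7 and 15.4 CPM in Control, at 14.3, 18.1 and 17.2 CPM in STET, at 11.3, 12.1 and 13 CPM in STET_S100 and at 18.1, 19.1 and 13.9 CPM in STET_S200. Every STET_S100 library was below each of the 9 others. The log2 fold change in STET_S100 was −0.34 ± 0.12 against Control and −0.44 ± 0.12 against STET, and STET_S200 against STET_S100 gave 0.49 ± 0.12. Leaving out any 1 library kept the last value between 0.40 and 0.62. With the 7 libraries low in Fabp4 it was 0.53 for Tnfaip2, 0.27 for Nfkbia and 0.27 for Nfkbie, and with the choroid plexus score 0.46, 0.39 and 0.25.

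The subunit genes differed less. Nfkb1 lay between 37.3 and 45.7 CPM, and its differences between groups were at most 0.04 in size, against SE of 0.07. Rela lay between 35.2 and 41.4 CPM, with group means of 36.2 ± 1.24 CPM in STET_S200, 38.0 ± 1.36 in Control, 38.8 ± 1.97 in STET_S100 and 39.7 ± 1.98 in STET (SD, n = 3 each). It was lowest on average where Tnfaip3 was highest, with a log2 fold change of −0.13 ± 0.05 for STET_S200 against STET and with overlap, which was −0.05 with the 7 libraries low in Fabp4. Nfkb2 lay between 20.0 and 25.9 CPM and Relb between 17.9 and 24.2 CPM. Both were above Control on average in STET (0.12 ± 0.08 and 0.13 ± 0.10) and in STET_S200 (0.12 ± 0.08 and 0.14 ± 0.10), with overlap in each case, and the highest Relb values were single libraries, STET 3 and STET_S200 2. Without STET 3 the STET values were 0.02 for both genes, and without STET_S200 2 that of Relb in STET_S200 was 0.02. With the 7 libraries low in Fabp4 the STET values were −0.003 for Nfkb2 and −0.02 for Relb, and Relb in STET_S200 was at 0.01.

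Over the 10 members the edgeR quasi-likelihood test with Benjamini-Hochberg adjustment over 19492 genes called 0 members in each of the 7 comparisons, beside 0% of all genes in each. The smallest adjusted p of a member was 0.828, and DESeq2 and limma-voom called 0 members as well. Without the filter on low counts, with 35834 genes tested, edgeR called Tnfaip2 in STET_S100 against STET, where 22 of all genes were called. In STET_S200 against STET_S100 it called Tnfaip2 and Tnfaip3, where 98 of all genes were called. At an unadjusted p under 0.05, 4 of 10 members were counted in STET_S200 against STET_S100 (5.2% of all genes), 3 in STET_S100 against STET (3.16%), 2 in STET_S100 against Control (5.16%), 1 in STET_S200 against Control (5.92%), 1 in STET_S200 against STET (4.56%) and 0 in STET against Control (3.5%). For the 3 stimulated groups averaged it was 0 (5.47%). Since the members were chosen with these values known, nothing is read from the counts.

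Overlap of the groups was counted in the same way. In STET_S200 against STET_S100, 4 of 10 members were higher without overlap, beside 4.57% of all genes, and 0 were lower (4.77%). In STET_S100 against STET, 2 were lower without overlap (4.87%), Tnfaip2 and Tnfaip3, and 0 were higher (4.73%). In STET_S100 against Control 2 were lower (4.93%), Tnfaip2 and Nfkbie, and 0 higher (5.19%). In STET_S200 against Control 1 was higher (5.73%), Nfkbiz, and 0 lower (5.28%). STET against Control had 0 higher (4.69%) and 0 lower (4.2%), STET_S200 against STET 0 higher (6.22%) and 0 lower (5.76%), and all 9 stimulated libraries against Control 0 higher (0.549%) and 0 lower (0.441%). All 10 log2 fold changes were negative in STET_S100 against STET, with a median of −0.14, where 51.9% of all genes were positive and the median was 0.00. With the 7 libraries low in Fabp4 only Nfkbia, Nfkbie, Tnfaip2 and Tnfaip3 stayed negative there, and the 6 others lay between 0.00 and 0.11. The medians over the members were 0.08 in STET, −0.02 in STET_S100 and 0.13 in STET_S200 against Control, with medians of all genes at 0.00.

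**Figure D3:**
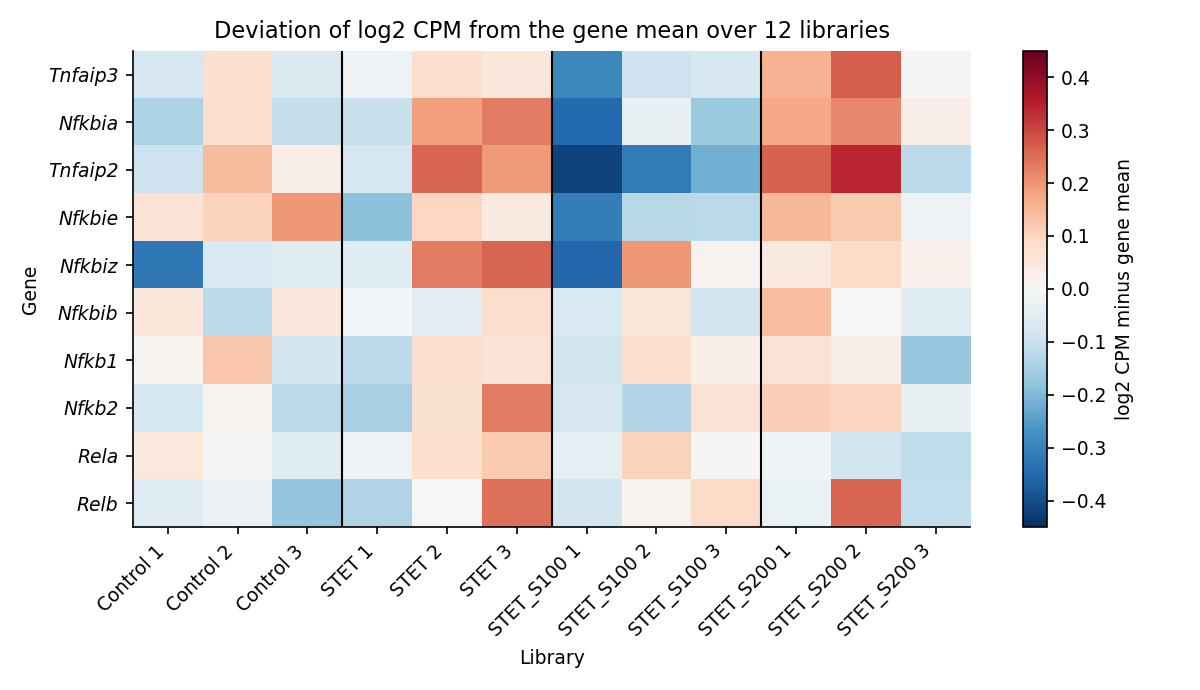
Log2 CPM of each gene in each library minus that gene's mean over the 12 libraries; rows are genes, columns are libraries, and black lines part the groups. Blue is below and red above the mean. STET_S100 1 is the lowest library for 5 of the 10 genes, and STET 3 is the highest for 4.

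The members varied together to different degrees. STET_S100 1 was the lowest library for Nfkbia, Nfkbie, Nfkbiz, Tnfaip2 and Tnfaip3, and STET 3 was the highest for Nfkb2, Rela, Nfkbia and Nfkbiz. Over the 12 libraries the log2 CPM of Tnfaip3 correlated with that of Tnfaip2 at r = 0.91 and with that of Nfkbia at 0.89, then Nfkbie (0.70), Nfkb2 (0.59), Nfkbiz (0.56) and Relb (0.52). It was at 0.42 with Nfkb1, 0.23 with Nfkbib and −0.12 with Rela. With group means removed the values were 0.86 for Tnfaip2, 0.83 for Nfkb1, 0.80 for Nfkbia, 0.71 for Relb and 0.66 for Nfkbie and Nfkbiz. They were 0.52 for Nfkb2, 0.43 for Rela, where the sign changed, and 0.00 for Nfkbib. Apart from Nfkbib, libraries of the same group thus also differed together. These are descriptions over libraries that share groups and tissue content, and 1 low and 1 high library weigh on each of them.

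**Figure D4:**
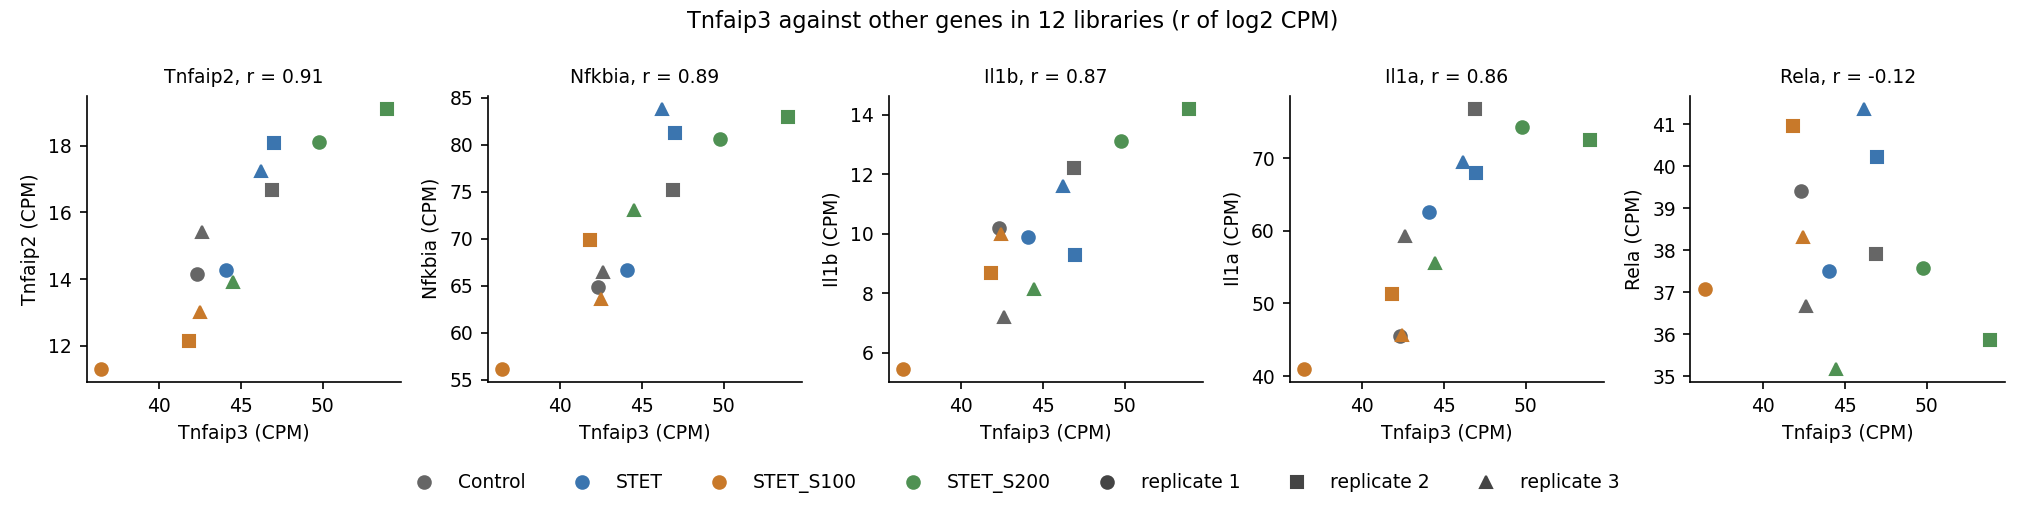
CPM of Tnfaip3 (x axis) against CPM of 5 other genes (y axes) in the 12 libraries, with colours for groups, symbols for replicates and Pearson's r of log2 CPM above each panel. Tnfaip2, Nfkbia, Il1b and Il1a rise with Tnfaip3 from STET_S100 1 at the lower left to STET_S200 2 at the right. Rela (r = −0.12) does not over all 12 libraries, and its r with group means removed is 0.43.

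Genes with the level pattern most like Tnfaip3 were sought among 13285 named genes with a mean log2 CPM of at least 0, by Pearson's r over the 12 libraries. The 10 highest were Tnfaip2 (0.91), Nfkbia (0.89), Il1b (0.87), Il1a (0.86), Zbtb2 (0.81), Kars (0.79), Ccl3 (0.79), Smc6 (0.78), Bhlhe40 (0.77) and Nlrp3 (0.76). Il1a and Il1b encode the 2 forms of interleukin-1, Ccl3 encodes a chemokine, and Nlrp3 the sensor of an inflammasome that releases interleukin-1-beta. Il1a was at 41.0, 51.3 and 45.6 CPM in STET_S100 and at 74.3, 72.5 and 55.6 CPM in STET_S200, without overlap, while Control spread from 45.5 to 76.8 CPM. Il1b was at 5.46 CPM in STET_S100 1 and at 14.2 CPM in STET_S200 2, its lowest and highest libraries, and these 2 groups overlapped. Nlrp3 lay at 8.69 to 10.3 CPM in STET_S100 and 10.5 to 13.2 CPM in STET_S200. The 5 lowest correlations were those of Arrdc2 (−0.84), Psg16 (−0.79), Znrf1 (−0.78), Gemin6 (−0.78) and Shisa5 (−0.77). The 10 were taken as the highest of 13285 values over 12 libraries, so their r carries no test.

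Of the wider pathway, 87 genes in 4 lists were examined and 85 had enough counts. With edgeR and Benjamini-Hochberg adjustment 0 of 85 passed in either direction in any of the 7 comparisons, and with DESeq2 and limma-voom 0 passed as well. At an unadjusted p under 0.05, 1 to 7 of the 85 were counted per comparison: 2 higher and 0 lower in STET against Control, 1 and 3 in STET_S100, 2 and 2 in STET_S200, 1 and 6 in STET_S100 against STET, 0 and 1 in STET_S200 against STET, 5 and 2 in STET_S200 against STET_S100, and 2 and 1 for the mean of the stimulated groups. Over all genes, both directions together, the shares were 3.5%, 5.16%, 5.92%, 3.16%, 4.56%, 5.2% and 5.47% in the same order.

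Ligands and receptors at the head of the pathway gave values of both signs, with a median of 0.08 in STET against Control, −0.07 in STET_S100 against STET and −0.02 in STET_S200 against STET_S100 over 14 genes. Tnf, which encodes tumour necrosis factor, was at 13 ± 1.13 CPM in STET, 9.71 ± 1.32 in STET_S100 and 12 ± 1.96 in STET_S200 (SD, n = 3), against 11.8 ± 1.49 in Control. Its log2 fold change was −0.43 ± 0.13 in STET_S100 against STET without overlap, and 0.31 ± 0.13 in STET_S200 against STET_S100 with overlap. When the stimulated groups were averaged and set against Control, only the 11 genes with a mean log2 CPM of at least 0 were ranked. Among these 11, the interleukin-1 receptor gene Il1r1 (0.29 ± 0.22) and the receptor gene Tnfrsf1b (0.09 ± 0.15) had the largest positive values. The Toll-like receptor gene Tlr2 (−0.11 ± 0.10) and Tnf (−0.03 ± 0.11) had the largest negative ones.

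The 27 signalling kinases and adaptors, which link receptors to the inhibitor kinase, had medians between −0.02 and 0.04 in the 7 comparisons. For the mean of the stimulated groups the outer values were those of Traf5 (0.43 ± 0.17) and Birc3 (0.34 ± 0.16), and of the kinase genes Irak2 (−0.22 ± 0.07) and Ikbke (−0.14 ± 0.12). Irak2 averaged 20.9 ± 0.67 CPM in STET_S200 and 25.9 ± 3.23 CPM in Control (SD, n = 3 each).

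The 19 other subunits and inhibitors had medians between 0.01 and 0.05. The IkB relatives Bcl3 (0.22 ± 0.15) and Nfkbid (0.11 ± 0.11) had the largest positive values for the mean of the stimulated groups, and the subunit gene Rel (−0.11 ± 0.07) and the regulator Tank (−0.10 ± 0.05) the largest negative ones.

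Among 25 target genes, 23 had a positive log2 fold change in STET against Control, with a median of 0.15, 16 in STET_S100 (median 0.05) and 19 in STET_S200 (median 0.10). In STET_S100 against STET 20 of 25 were negative (median −0.11), and in STET_S200 against STET_S100 18 were positive (median 0.08). Of all genes 49.9% to 51.9% were positive in these 5 comparisons, with medians at 0.00. For the mean of the stimulated groups, only the 22 target genes with a mean log2 CPM of at least 0 were ranked. The largest positive values among these 22 were those of the chemokine gene Cxcl10 (0.58 ± 0.42) and the transcription factor gene Irf1 (0.31 ± 0.18). The survival gene Bcl2l1 (−0.06 ± 0.04) was negative. Cxcl10 ranged from 5.33 to 15.5 CPM in Control alone.

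Activity-regulated genes did not share the pattern of Tnfaip3. Fos, at 151 to 168 CPM in Control, was at 208 to 295 CPM in STET, 171 to 320 CPM in STET_S100 and 217 to 281 CPM in STET_S200, and Junb, Arc and Npas4 were likewise above Control in all 9 stimulated libraries. None of the 4 genes separated STET_S100 from STET_S200. Over the 12 libraries Tnfaip3 correlated with Fos at r = 0.26, with Junb at 0.13, with Arc at 0.14 and with Npas4 at 0.08, and Nfkbiz with the same genes at 0.65, 0.65, 0.57 and 0.61.

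Markers of the cell types in which the pathway is best known were compared between the amygdala groups. The 10 microglia markers summed to 254 to 292 CPM in STET_S100 and 237 to 277 CPM in STET_S200, with 2 of 10 higher in STET_S200. The defining markers Tmem119 and P2ry12 were present in every library. In STET_S200 0 of 10 microglia markers were higher both against Control (median log2 fold change −0.20) and against STET (median −0.13). In each of these comparisons 4 were lower without overlap, beside 5.28% and 5.76% of all genes. The 9 endothelial markers summed to 121 to 126 and 115 to 124 CPM, with 2 of 9 higher, and the 7 astrocyte markers to 5920 to 6530 and 6010 to 7080 CPM, with 3 of 7 higher. These 3 summed levels overlapped between the amygdala groups. With group means removed, Tnfaip3 correlated with the defining endothelial markers Cldn5 and Pecam1 at r = 0.82 and 0.15. With the microglia markers Tmem119 and P2ry12 it correlated at −0.62 and −0.06. The 8 markers of perivascular and blood myeloid cells summed to 4.05 to 7.16 and 5.61 to 6.10 CPM. Of these, 4 had enough counts and all 4 were higher in STET_S200, the defining markers Mrc1 and Cd163 were present in every library, and Ccr2, S100a8, S100a9, Ly6c2 and Plac8 were at 0 in 1 or more libraries. The 7 choroid plexus markers summed to 19.7 to 3040 and 5.64 to 50.4 CPM, with 0 of 7 higher in STET_S200. In STET_S200 all 7 were lower without overlap against Control (median log2 fold change −5.1) and against STET (median −5.38). The shares of all genes were 5.28% and 5.76%. Tnfaip3 correlated with the defining markers Ttr and Folr1 at r = −0.575 and −0.506 over the 12 libraries, and at −0.364 and −0.211 with group means removed. The part of these cell types in the levels of the members was not tested beyond the fit with the choroid plexus score.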

How the data were processed

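Poly(A) RNA of 12 libraries was sequenced with paired reads of 150 bases, per the labels' protocols. The authors deposited read counts per Ensembl gene ID, unscaled whole numbers. The submitters' processing notes name STAR 2.7.1a, HTSeq 0.11.2, Trimmomatic 0.39, limma and R 4.0.2; settings and genome build were not given in the sources used here. Symbols, available for 55144 of 55471 IDs, and exon lengths came from GENCODE M21.

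Counts of genes kept by filterByExpr (minimum count 10, minimum total 15) were fitted in edgeR 4.0.16 (R 4.3.3) with TMM scaling and robust quasi-likelihood dispersion, 1 coefficient per group, all 12 libraries. Adjusted p-values are Benjamini-Hochberg values with a threshold of 0.05. Log2 CPM used a prior count of 2. The fit was tested on simulated data. Alternatives used other scalings, filters, DESeq2 1.42.0, limma-voom 3.58.1, a replicate block, tissue terms and left-out libraries.

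Members, lists and alternatives were chosen with earlier results of these data known. The named genes are the members, by list the 2 highest and 2 lowest by the mean of the stimulated groups with mean log2 CPM at or above 0, the 10 most and 5 least like Tnfaip3, and Fos, Junb, Arc and Npas4.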

Additional observations from a re-analysis of the deposited data

How the results depend on the processing

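Among 1670 member log2 fold changes recomputed under alternatives, 1585 kept their sign and 9 moved by more than the SD between libraries of a group, all of them with the 7 libraries low in Fabp4. Tnfaip3 in STET_S200 against STET_S100 stayed between 0.23 and 0.37 in all 24 alternatives. The count of members called was 0 under each alternative except the fit without a filter on low counts, which tested 35834 genes. There it was 1 in STET_S100 against STET, Tnfaip2, where 22 of all genes were called, and 2 in STET_S200 against STET_S100, Tnfaip2 and Tnfaip3, where 98 were called. Without a filter 3 pathway genes were called in any comparison against 0, Tnf, Cxcl2 and Irak2, named after their values were seen. All genes called without a filter numbered 16 in STET, 42 in STET_S100 and 69 in STET_S200 against Control, 34 in STET_S200 against STET and 52 for the mean of the stimulated groups, and DESeq2 called 1 to 11 per comparison. The cause was not tested. Whether libraries with the same replicate number share mice is not stated. Correlations of same-numbered libraries ran from −0.285 to 0.33, and only 7 of 18 were above 0.1. Of the 12 libraries, 7 correlated best with their own number. No expected number was worked out for these counts, so they do not decide whether mice are shared. With the replicate number as a block 0 members were called, and Tnfaip3 in STET_S200 against STET_S100 was 0.29. The fewest counts of a member in a library were 269, for Nfkbie, and each group has 3 libraries.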
